A study of Schizosaccharomyces pombe with 8 samples.

Results

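The coding genes that lie within 100 kb of either end of chromosome II of Schizosaccharomyces pombe were followed through a 2.5 h treatment with trichostatin A (TSA), which blocks the zinc-dependent histone deacetylases (HDACs). Members were chosen by position, apart from 6 genes left out by name. The rule took every protein-coding gene of chromosome II that stopped within the first 100 kb or started within the last 100 kb of the sequence. These windows held 58 coding genes, of which eno102, pho84, pho1, gal1, gal7 and gal10 were left out, so that 52 of the 5129 coding genes of the series remained, 30 at the left end and 22 at the right end. Nascent RNA was measured by NET-seq, in which RNA still held by RNA polymerase II (Pol II) is purified through the polymerase and sequenced. Both groups were biological duplicates of exponentially growing cells that carried a flag tag on the Pol II subunit Rpb3, and no other allele is named. The untreated group received no TSA, the TSA group received 20 µg/ml, and each culture gave an immunoprecipitated (IP, nascent) library and an input library, 8 libraries in all. A lysate of Rpb3-flag Saccharomyces cerevisiae cells was added to each lysate as a spike-in, at 1 part to 50. The chromosome ends of the strain itself were not checked against the reference, and p-values rest on 2 cultures per group.

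In fission yeast the genes next to telomeres are packed in heterochromatin. Nucleosomes there carry methylated lysine 9 of histone H3, written by Clr4 and bound by HP1 proteins such as Swi6, and the class II HDAC Clr3, part of the complex SHREC, removes histone acetylation and limits Pol II access. Silencing is nucleated at the telomere repeats by proteins such as Taz1 and at repeated elements inside the tlh genes, and it fades inward into a zone of facultative heterochromatin and condensed chromatin whose genes are often used only in starvation or sexual development.

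The outermost genes were near-identical copies of one another, and this set what could be measured, because only reads with a unique place in the genome had been kept. To see which members could collect such reads, the share of each gene's 50-base words (50-mers, the read length) that occur once in the RefSeq genome (assembly ASM294v3) was computed. It was under 15% in 24 of the 52 members, 13 at the left end and 11 at the right end, and 23 of these 24 had at most 1 read in any of the 8 libraries, with 0 reads in all 8 libraries for 18. The exception was tlh2. Of the 5118 coding genes with a computed share, 72 fell under 15%, and 60 of these 72 had at most 1 read, against 1 of the 5046 others. The following stretches of coding sequence, each read along its own gene, show a pair that a 50-base read cannot tell apart. SPBC1348.15 at the left end (chrII:604-693, minus strand) and SPBCPT2R1.03 at the right end (chrII:4512231-4512320, plus strand) encode an uncharacterized protein and were identical over all 390 coding bases, of which the first 90 are printed.
SPBC1348.15: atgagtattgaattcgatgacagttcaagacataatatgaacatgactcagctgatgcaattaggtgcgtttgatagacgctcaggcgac
SPBCPT2R1.03: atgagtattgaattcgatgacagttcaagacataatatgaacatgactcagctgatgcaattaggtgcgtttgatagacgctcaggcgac

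SPBC1348.01 (chrII:5655-5744, plus strand) and SPBCPT2R1.04c (chrII:4514308-4514397, minus strand) belong to the DUF999 family, which is specific to fission yeast. Their longest coding parts differed at 1 of 490 aligned bases, given in capitals at the end of this 90-base stretch.
SPBC1348.01: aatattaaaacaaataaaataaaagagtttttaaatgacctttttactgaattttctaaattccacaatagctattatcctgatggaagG
SPBCPT2R1.04c: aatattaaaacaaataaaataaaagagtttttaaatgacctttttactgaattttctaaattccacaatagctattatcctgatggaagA

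tlh2 (chrII:4526885-4532899, plus strand) encodes a telomere-linked RecQ-type helicase and was 99.98% identical to tlh1 of chromosome I over 94.1% of its length. Only 403 of its 5966 50-mers were unique. The coding stretch below (chrII:4527138-4527236, plus strand) carries the base, in capitals, that gave 50 of them, and the other run of 353 unique 50-mers began at position 4532498 and ran to the end of the gene, past the last coding base at 4532644.
tlh2: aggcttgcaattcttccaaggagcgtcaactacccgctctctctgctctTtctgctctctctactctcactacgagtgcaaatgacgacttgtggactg

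On the left arm the 11 members from 0.3 to 26.2 kb from the end (SPBC1348.15 and SPBC1348.01 to SPBC1348.10c) were duplicated in this way. They encode proteins of the DUF999 and transmembrane helix families, a methyltransferase, a transporter, a Vel1p-domain protein, a glycoprotein, a dehydrogenase and a phospholipase, and the closest match of each lay on chromosome I or elsewhere on chromosome II. SPBPB10D8.05c and SPBPB10D8.06c, transporter genes 94.5 and 97.2 kb from the end, were identical over their whole length to their neighbour SPBPB10D8.04c and held 0 reads, while SPBPB10D8.04c itself kept 18.1% unique 50-mers. On the right arm the duplicated block covered the 10 members from 24.99 to 46.4 kb (SPBCPT2R1.01c to SPBCPT2R1.04c and SPBPB2B2.14c to SPBPB2B2.19c). No statement on transcription can be made for these 23 genes. Further inward almost every member was unique. The exceptions were SPBPB8B6.05c (26.4%), fex2 (25.4%), SPBPB10D8.04c, SPBPB2B2.07c (39.8%) and SPBPB21E7.09 (70.2%). The values of these genes come from part of their length.

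**Figure D1:**
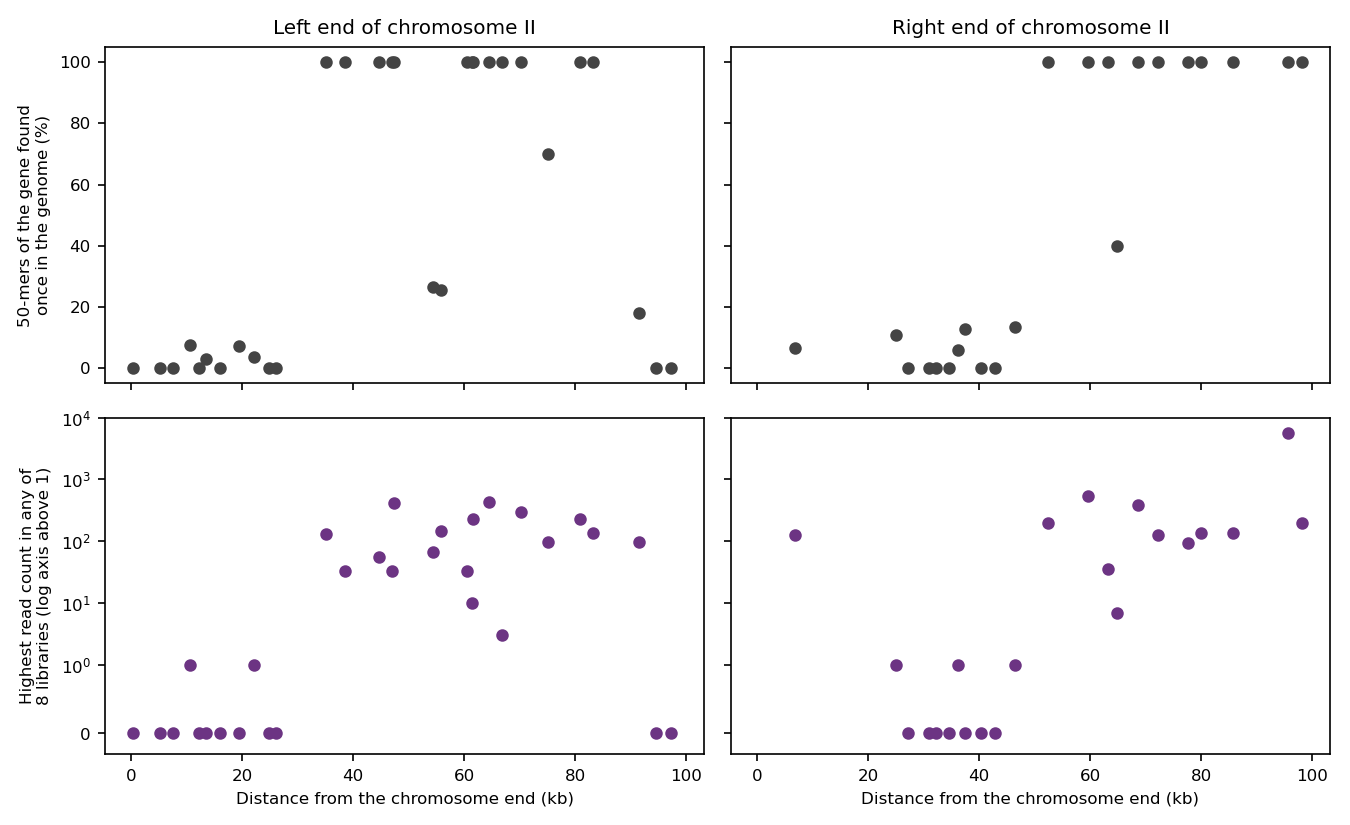
Share of 50-mers found once in the genome (top, %) and the highest read count of the gene in any of 8 libraries (bottom, log axis above 1) against distance from the chromosome end (kb), 1 point per member, left and right end. Members under 15% unique held at most 1 read, with the exception of tlh2 at the right end, 6.9 kb from the telomere with 125 reads.

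Values are given on 2 scales made by the authors, reads scaled to the spike-in (IP libraries alone) and reads scaled to the total (IP and input). Changes are TSA over untreated on a log2 scale after adding 6 to the spike-in value, which understates the change of low genes. A gene was tested when its mean was above that pseudocount, and it was called when limma's Benjamini-Hochberg adjusted p over all features was under 0.05 and the change was 2-fold or more. Of the 52 members, 26 were tested on the spike-in scale, 15 at the left end and 11 at the right end. The 26 others were the 23 duplicated genes and SPBPB21E7.10, SPBPB21E7.05 and SPBPB2B2.07c, whose highest counts were 10, 3 and 7 reads. The members took between 5488 and 7917 of the 7218671 to 10436194 reads on features of an IP library, and between 183 and 1041 of 8104143 to 12591213 in the inputs, where most members had few reads.

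At the left end, 8 of the 15 tested members rose in nascent transcription after TSA and 1 fell. Over all 8052 tested features 2.1% were called as rises and 6.31% as falls, and over the 5014 tested coding genes 1.4% and 5.68%. The single left fall (6.67% of these members) was near these shares. At the 2 ends together 3 tested members, SPBPB21E7.02c, tlh2 and SPBPB2B2.08, had an untreated mean under the pseudocount. They passed the filter only through their TSA values and so had to differ, and of the 23 others 10 rose. How many cells transcribed a gene and how strongly each did cannot be told apart in such bulk libraries. All 8 rises lay between 35.1 and 83.2 kb from the telomere. In all 8 the libraries of the groups did not overlap, which a called 2-fold change nearly implies. With 2 against 2 libraries non-overlap alone is weak, since an exact permutation test cannot go below p = 0.333. The share of all features without overlap is not given here. The largest belonged to grt1, a transcription factor gene 47.4 kb from the end (chrII:47369-51220, minus strand). Its spike-in-scaled signal was 47 and 24.6 in the untreated libraries and 231 and 236 in the TSA libraries (log2 change 2.57 ± 0.33 SE, adjusted p = 2.5e-12). Both TSA libraries were close to each other and more than 4 times the higher untreated library. The neighbour nearer the telomere, fah1, encodes an acetamidase and shares 1703 of its 2016 bases with grt1 on the opposite strand. Its signal was 9 and 3.83 in the untreated libraries and 18.2 and 25.1 in the TSA libraries (log2 change 1.18 ± 0.35 SE, adjusted p = 0.013), or 10.7 per kb of gene with TSA against 60.6 for grt1. Whether some of it came from reads of grt1 was not tested. SPBC1348.12, a DNA-binding transcription factor gene and the first readable member of this arm, gave 34 and 23.0 in the untreated libraries and 73.4 and 84.9 in the TSA libraries (log2 change 1.32 ± 0.34 SE, adjusted p = 0.0037).

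A second group of rises lay 60.6 to 70.2 kb from the end. aes1 (chrII:70156-71310, plus strand), a gene of the phenazine biosynthesis family, had 35 and 22.4 in the untreated libraries and 162 and 150.3 in the TSA libraries (log2 change 2.25 ± 0.33 SE, adjusted p = 6.3e-09). SPBPB21E7.04c, named cmt2 in RefSeq and encoding a catechol O-methyltransferase, had 88 and 67.8 in the untreated libraries and 236 and 344 in the TSA libraries (log2 change 1.80 ± 0.31 SE, adjusted p = 1.6e-06). Per kb of gene it was the most transcribed riser of this arm, in untreated and in TSA cells. SPBPB21E7.11, an uncharacterized gene specific to this yeast, had 37 and 19.1 in the untreated libraries and 105 and 188 in the TSA libraries (log2 change 2.16 ± 0.34 SE, adjusted p = 4.1e-08), and its TSA libraries differed from each other by more than 1.5 times. SPBPB21E7.02c, of the phosphoglycerate mutase family, was low, with 3 and 5.47 in the untreated libraries and 16.6 and 26.7 in the TSA libraries (log2 change 1.42 ± 0.35 SE, adjusted p = 0.0024). Its groups did not overlap, but the untreated values rest on 3 to 10 reads. Further inward, SPBPB10D8.02c, an arylsulfatase gene, passed narrowly with 49 and 21.3 in the untreated libraries and 74.5 and 71.1 in the TSA libraries (log2 change 1.02 ± 0.34 SE, adjusted p = 0.027).

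Between these clusters of rises lay a pair of genes with lower values after TSA. SPBPB8B6.05c, an L-asparaginase gene 54.3 kb from the end, fell from 44 and 36.1 to 17.1 and 13.7 (log2 change -1.10 ± 0.35 SE, adjusted p = 0.019). The adjacent fex2, a fluoride export channel gene, had 73 and 79.3 without TSA and 43.6 and 46.1 with TSA (log2 change -0.69 ± 0.34 SE, adjusted p = 0.13) and was not called, although its groups did not overlap. SPBPB10D8.04c, the readable copy of the transporter array, had 84 and 53.1 without TSA and 29.8 and 37.2 with TSA (log2 change -0.89, adjusted p = 0.054). These 3 genes were the only tested members of the left arm with a log2 change under 0, and they were also its 3 tested members with under 50% unique 50-mers. Their near copies lie on chromosome I (95.3% identity between SPBPB8B6.05c and SPAC977.12, 92.6% between fex2 and fex1) and beside SPBPB10D8.04c. How much of their transcription was counted was not tested. Little of it lay in coding sequence: the coding part of SPBPB8B6.05c held 8 and 6.56 without TSA and 2.21 and 0.808 with TSA, that of fex2 4 and 5.47 against 2.21 and 2.42, and that of SPBPB10D8.04c 0 in all 4 IP libraries. Of the 12 tested left members with at least 50% unique 50-mers, all 12 had a log2 change above 0, 8 of them called.

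The remaining 4 tested left members were not called on this scale. ght7, a hexose transporter gene, had 20 and 8.21 without TSA and 18.2 and 21.8 with TSA (log2 change 0.43). SPBPB21E7.09, a further L-asparaginase gene, had 59 and 35.0 without TSA and 53.5 and 76.8 with TSA (log2 change 0.44). In both the groups overlapped. The urea transporter gene SPBPB8B6.02c (15 and 13.7 without TSA and 30.4 and 38.8 with TSA, log2 change 0.99, adjusted p = 0.038) missed the fold threshold, and the cysteine transporter gene SPBPB10D8.01 (99 and 44.9 without TSA and 125 and 119.6 with TSA, log2 change 0.81, adjusted p = 0.066) missed both thresholds. In these 2 genes the groups did not overlap.

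**Figure D2:**
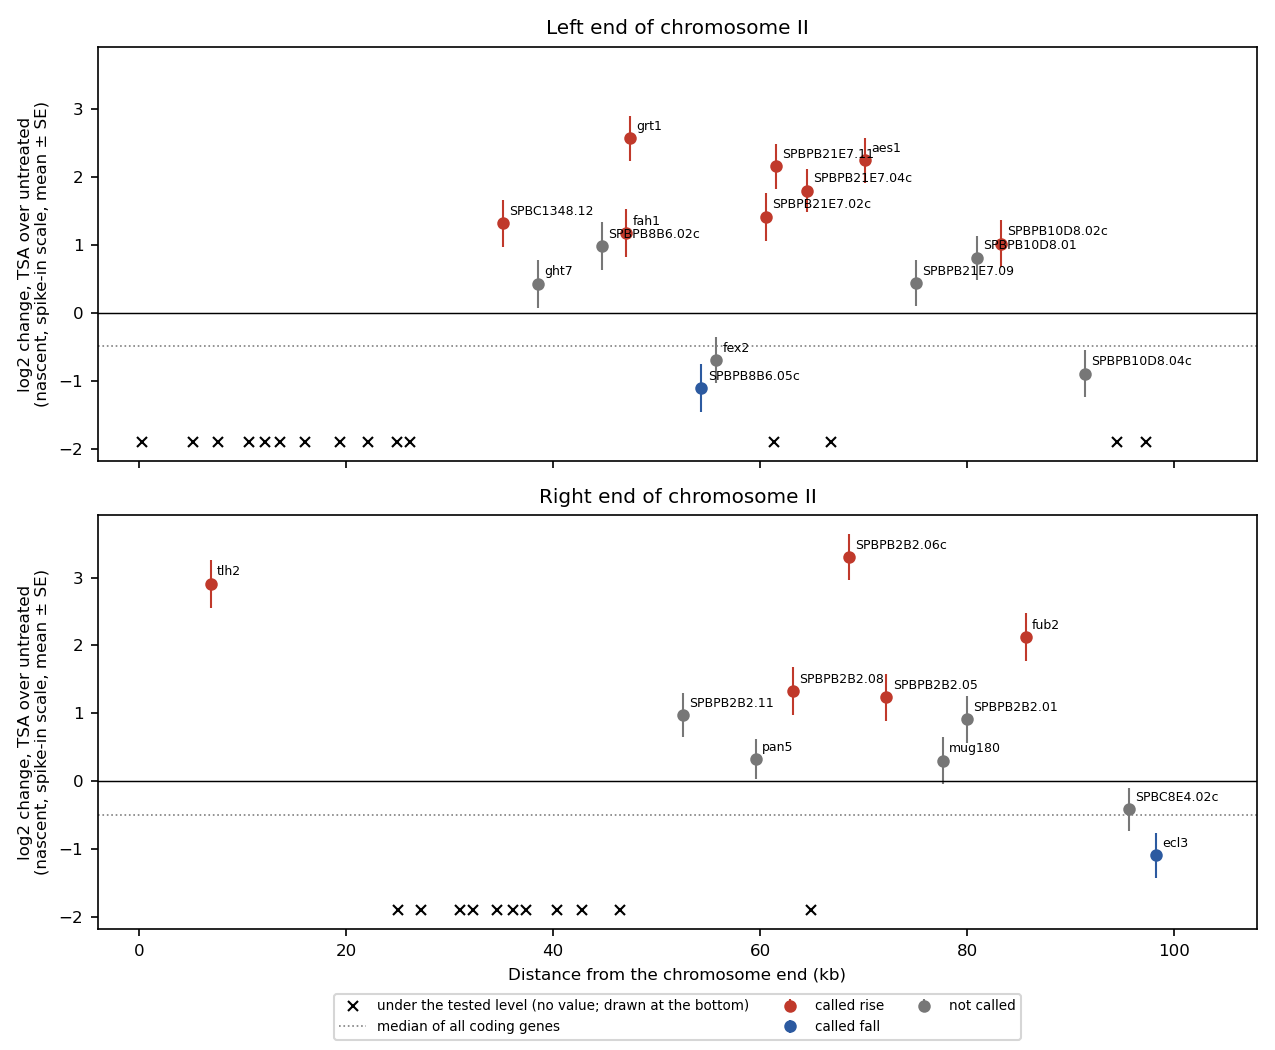
Log2 change of the nascent signal (TSA over untreated, spike-in scale, ± SE of the fit) against distance from the chromosome end (kb) for the left and the right end. Red points are called rises (8 and 5), blue points called falls (1 and 1), grey points tested members not called, crosses members under the tested level, and the dotted line the median of all coding genes (-0.49).

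At the right end, 5 of the 11 tested members rose and 1 fell, against 2.1% and 6.31% of all tested features. A single fall (9.09% of these members) was near the share over all features. SPBPB2B2.06c showed the largest change of all members. It lies 68.6 kb from the end (chrII:4469018-4471207, minus strand), and RefSeq describes it as a phosphoprotein phosphatase with similarity to extracellular 5′-nucleotidases. Its signal was 25 and 8.75 in the untreated libraries and 211 and 199 in the TSA libraries (log2 change 3.30 ± 0.34 SE, adjusted p = 3.0e-19), and no coding gene of the series had a larger log2 change in this fit. tlh2, 6.9 kb from the end, followed with 6 and 2.19 in the untreated libraries and 69.0 and 67.9 in the TSA libraries (log2 change 2.91 ± 0.35 SE, adjusted p = 1.1e-13). Its group means were 4.09 ± 2.70 and 68.5 ± 0.78 (SD, n = 2), and the untreated values rest on 6 and 4 reads. Its coding part alone gave 0 and 1.64 without TSA and 43.1 and 36.4 with TSA. Since the reference holds only assembled copies, copies of tlh2 at other telomeres of the strain were not told apart.

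fub2, a gene of the PI31 proteasome regulator family 85.6 kb from the end, had 14 and 8.21 in the untreated libraries and 40.8 and 109 in the TSA libraries (log2 change 2.12 ± 0.35 SE, adjusted p = 2.8e-07). Its TSA replicates differed by more than 2 times, although both stayed above the untreated pair. SPBPB2B2.08, a conserved fungal gene, had 8 and 3.83 without TSA and 18.8 and 29.1 with TSA (log2 change 1.33, adjusted p = 0.0047). SPBPB2B2.05, of the class I glutamine amidotransferase family, had 31 and 13.1 without TSA and 68.4 and 46.9 with TSA (log2 change 1.24, adjusted p = 0.0075). In both genes the groups did not overlap. The fall belonged to ecl3, the innermost member of this arm at 98.2 kb, which encodes a short protein of the Ecl1 family known for extending chronological lifespan. It had 168 and 106 in the untreated libraries and 49.7 and 71.1 in the TSA libraries (log2 change -1.09 ± 0.33 SE, adjusted p = 0.013).

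The 5 other tested right members were not called. Per kb of gene SPBC8E4.02c was the most transcribed member (2193 without TSA). Its signal was 4059 and 3037 in the untreated libraries and 2159 and 3222 in the TSA libraries, so that its groups overlapped (log2 change -0.41, adjusted p = 0.33). It is typed as a coding gene in the deposited annotation but has no entry in the RefSeq annotation used here. Whether it encodes a protein was not checked. Its last 67 bases are shared with the start of pho84 on the same strand. pan5, a 2-dehydropantoate 2-reductase gene of pantothenate synthesis, had 288 and 193 without TSA and 293 and 303 with TSA (log2 change 0.33). mug180, named say1 in RefSeq for a sterol deacetylase, had 56 and 35.0 without TSA and 50.8 and 62.2 with TSA (log2 change 0.30), with groups that overlapped. The amino-acid permease gene SPBPB2B2.01 (log2 change 0.91, adjusted p = 0.049) and SPBPB2B2.11, which encodes a nucleotide-sugar 4,6-dehydratase (log2 change 0.98, adjusted p = 0.029), stayed under 2-fold. SPBPB2B2.11 shares 3291 of its 3631 bases with gal10 on the opposite strand. Its signal was 83 and 41.0 without TSA and 91.1 and 161 with TSA, while that of gal10, a gene of galactose use, was 252 and 197 without TSA and 1097 and 1621 with TSA.

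**Figure D3:**
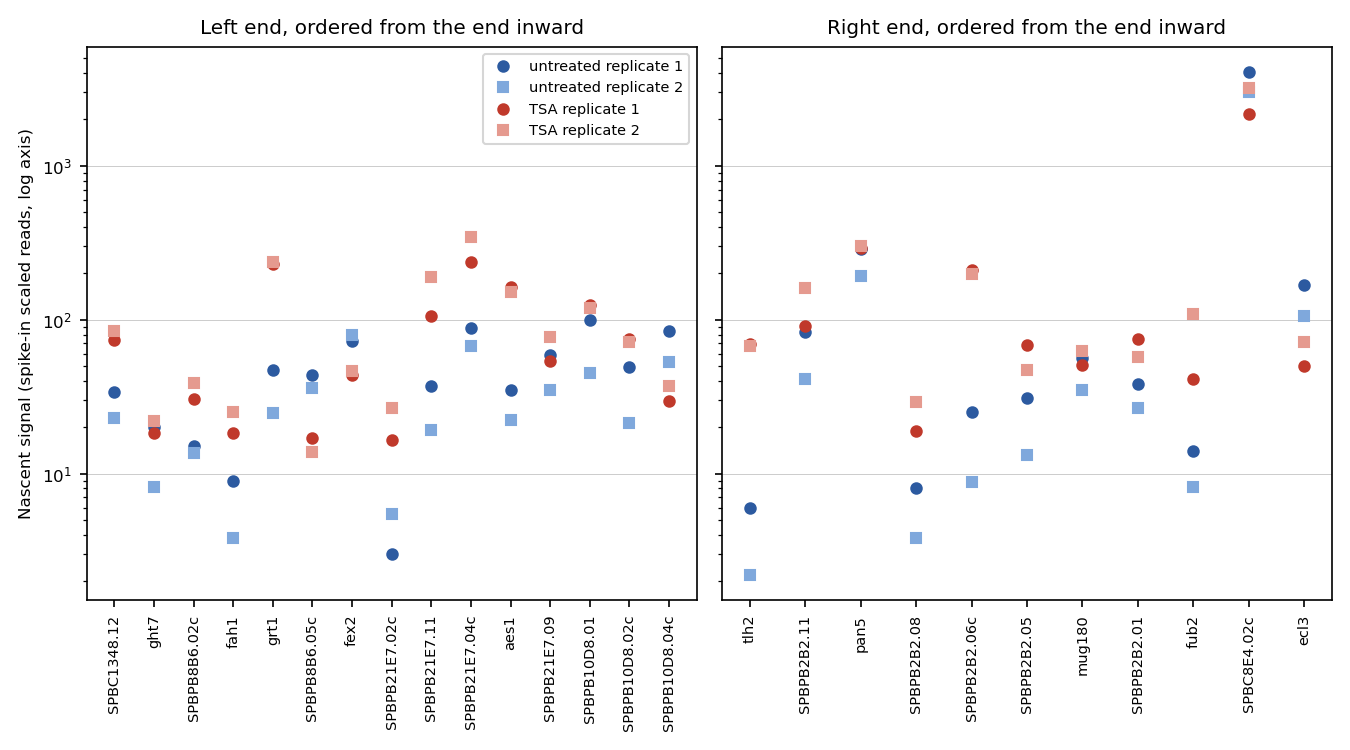
Nascent signal (spike-in-scaled reads, log axis) of the 26 tested members in each IP library, ordered from the chromosome end inward. Blue symbols are the untreated and red symbols the TSA replicates; in grt1, aes1, SPBPB2B2.06c and tlh2 both TSA libraries lie far above both untreated libraries.

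How firmly each call stood was checked by leaving out each of the 4 IP libraries and by the other settings. The rises of grt1, aes1, SPBPB2B2.06c and tlh2 held in every one of these fits. Each left-out fit sets 1 library against 2, with the lone library assumed to vary like the others, and adds no replication. The other 11 calls did not. SPBPB21E7.11, SPBPB21E7.04c and fub2 were lost only without TSA replicate 2, while SPBC1348.12, SPBPB21E7.02c and SPBPB2B2.08 were lost without either TSA replicate, and fah1, SPBPB10D8.02c and SPBPB2B2.05 without untreated replicate 2 as well. Without TSA replicate 2 the counts of rises were 2 at the left end and 2 at the right end, without TSA replicate 1 they were 4 and 3, without untreated replicate 2 they were 6 and 4, and without untreated replicate 1 they were 9 and 7. The 2 falls were lost without untreated replicate 1 and without either TSA replicate.

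The scale decided how many members counted as risers. On the spike-in scale the median log2 change of all 5014 tested coding genes was -0.49, and on the total-read scale it was -0.02. On the total-read scale 10 left and 7 right members rose and none fell (limma; 2 had an unadjusted p under 0.05 for a lower value, and edgeR and DESeq2 called 0 falls), against 4.45% of all features called as rises and 0.843% as falls (2.61% and 0.379% of coding genes). The 13 members that rose on the spike-in scale were among these 17. The 4 others were SPBPB8B6.02c (log2 change 1.36), SPBPB10D8.01 (1.27), SPBPB2B2.01 (1.34) and SPBPB2B2.11 (1.43). On the total-read scale SPBPB8B6.05c had a log2 change of -0.72 and ecl3 of -0.64, and neither was called. In the total-read fit fah1, SPBPB21E7.02c, SPBPB2B2.08 and tlh2 passed the filter only through their TSA values, so they had to differ. All 4 rose, and of the 22 other tested members 13 rose. Both scales come from the same libraries, so the second is no independent measurement.

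By distance, the outermost members were duplicated and unreadable apart from tlh2, and further inward rises and members not called were mixed, with no steady gradient. At the left end 0 of 8 members could be tested in the first 20 kb, and 1 of 2 tested members rose at 20 to 40 kb, 2 of 5 at 40 to 60 kb, 4 of 5 at 60 to 80 kb and 1 of 3 at 80 to 100 kb, with median log2 changes of 0.88, 0.99, 1.80 and 0.81. At the right end tlh2 was the only member in the first 20 kb and rose (log2 change 2.91), 0 of 7 could be tested at 20 to 40 kb, 0 of 2 rose at 40 to 60 kb, 3 of 5 at 60 to 80 kb and 1 of 3 at 80 to 100 kb, with medians of 0.65, 1.24 and -0.41 in these last bins. The genes left out by name are not in these counts. At the left end eno102 (58.1 kb) had a log2 change of 2.51. At the right end gal1 (49.5 kb) had 1.64, gal10 (52.2 kb) 2.55 and gal7 (56.0 kb) 0.94. pho1 (90.8 kb) had 0.75 and pho84 (93.6 kb) 0.63. Of these genes eno102, gal1 and gal10 met the rule for a rise. Over the tested members the correlation of distance with the log2 change was weak at the left end (Pearson r = -0.19, Spearman rho = -0.09, 15 genes) and rested on few genes at the right end (r = -0.60, rho = -0.55, 11 genes). These values share the same 4 libraries and are given as a description. The first genes past 100 kb at the left end were SPBPB10D8.07c, which straddles the limit and held 0 reads, and SPBC359.01, with 65 and 54.2 without TSA and 68.4 and 60.6 with TSA (log2 change 0.11). At the right end SPBC8E4.03 at 103.9 kb had a log2 change of -0.57, SPBC8E4.04 of 0.72 and SPBC8E4.05c at 108.1 kb of 1.91 (adjusted p = 5.8e-06).

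The members were set beside the coding genes of the chromosome I ends and of the next 100 kb inward. In nascent RNA their median was the higher, while in the input the left end of chromosome I had the highest median. The median log2 change on the spike-in scale was 1.02 for the left end of chromosome II and 0.98 for its right end, 0.56 and 0.37 for the tested coding genes of the ends of chromosome I (15 and 20 genes), and -0.47 for 154 coding genes that lay 100 to 200 kb from the ends. Rises made up 50.0% of the tested members, 37.1% of the tested genes of the chromosome I ends and 3.25% of the 100 to 200 kb genes. The sets were not chosen alike, because genes were left out by name at chromosome II alone. The chromosome I set kept ght3 (log2 change 2.52) and str3 (1.90), both rises, while eno102, gal1 and gal10, also rises, were missing from the members. Medians and shares are descriptions of overlapping ranges, from -1.10 to 3.30 at chromosome II and from -1.42 to 2.52 at chromosome I, and the difference between the chromosomes was not tested. In the input the median log2 change was 1.51 for the left end of chromosome II (7 of 15 rose) and 1.56 for its right end (7 of 11), against 2.08 for the left end of chromosome I (10 of 15) and 0.16 for its right end (4 of 15).

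**Figure D4:**
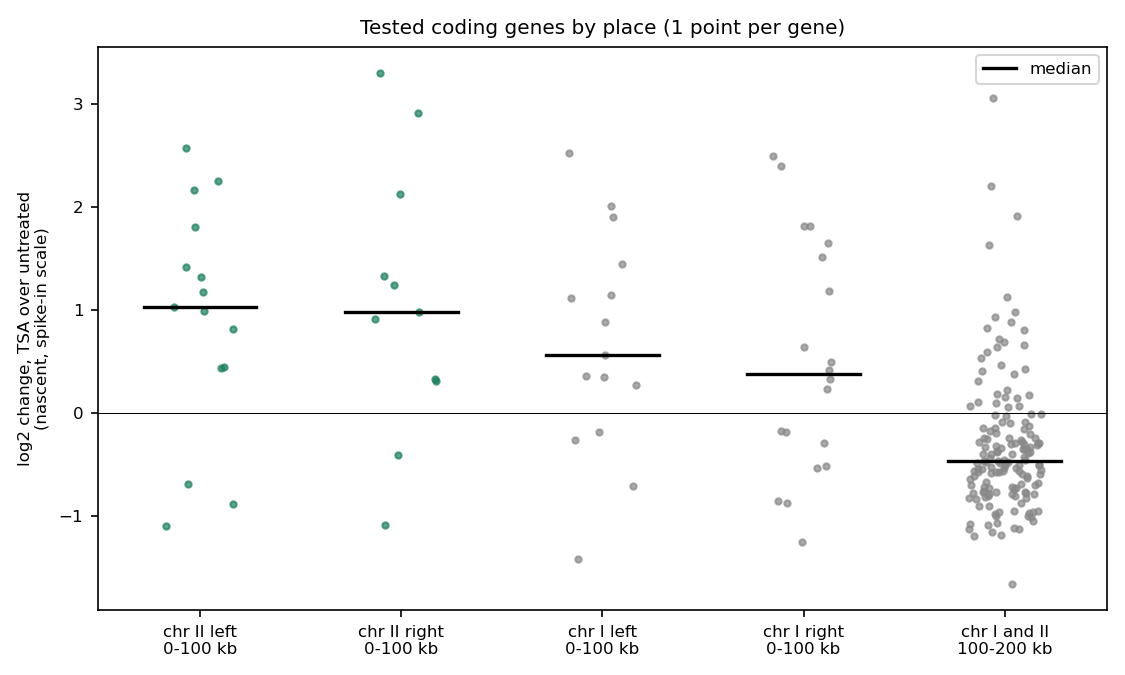
Log2 change of the nascent signal (TSA over untreated, spike-in scale) of each tested coding gene at the left and right ends of chromosome II (green, 15 and 11 genes), the ends of chromosome I (grey, 15 and 20 genes) and 100 to 200 kb from the ends (grey, 154 genes). Bars are medians, 1.02, 0.98, 0.56, 0.37 and -0.47; points are spread sideways at random.

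In the input, RNA from 14 of these genes rose, at both ends. Of the 26 members tested in the input, 7 of 15 at the left end and 7 of 11 at the right end rose and 0 fell by limma (0 also by edgeR and DESeq2, and 0 at an unadjusted p under 0.05), where 4.53% of 7245 features were called as rises and 1.56% as falls (4.09% and 1.93% of coding genes). SPBPB2B2.06c had 3 and 1 input reads without TSA and 149 and 90 with TSA (log2 change 4.99 ± 0.33 SE, adjusted p = 8.1e-08), the largest rise of any coding gene in the input. grt1 had 2 and 4 input reads without TSA and 83 and 72 with TSA (log2 change 3.99 ± 0.35 SE, adjusted p = 1.6e-06), and aes1 had 7 and 7 input reads without TSA and 93 and 72 with TSA (log2 change 3.12 ± 0.27 SE, adjusted p = 1.6e-06). In these genes each TSA library held several times the reads of either untreated library. SPBPB21E7.04c had 8 and 4 input reads without TSA and 59 and 46 with TSA (log2 change 2.73, adjusted p = 2.7e-05). SPBPB10D8.02c, a narrow call in nascent RNA, had 6 and 4 input reads without TSA and 52 and 41 with TSA (log2 change 2.73, adjusted p = 2.9e-05). tlh2 had 0 and 2 input reads without TSA and 26 and 11 with TSA (log2 change 2.82, adjusted p = 0.0023), where the untreated counts are too low for a firm fold. It was 1 of 7 tested members (with ght7, fah1, SPBPB21E7.02c, SPBPB21E7.11, fub2 and SPBPB2B2.08) whose untreated input mean was under the pseudocount of 1.18. These 7 passed the filter only through their TSA values and 5 were called, while 9 of the 19 others were.

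The other input rises were SPBC1348.12 (log2 change 2.41), fah1 (2.27), SPBPB21E7.11 (2.29), fub2 (2.21), SPBPB2B2.01 (1.45), mug180 (1.56), SPBPB2B2.05 (2.09) and SPBPB2B2.08 (2.87). Of the 14 input rises, 12 were also rises of nascent RNA on the spike-in scale. SPBPB2B2.01 was called in nascent RNA only on the total-read scale, and mug180 on neither scale, with 10 and 6 input reads without TSA and 33 and 26 with TSA. Among members not called, ecl3 had 8 and 6 input reads without TSA and 7 and 6 with TSA, fex2 had 7 and 9 input reads without TSA and 11 and 7 with TSA and SPBC8E4.02c had 75 and 50 input reads without TSA and 130 and 101 with TSA (log2 change 0.70, under 2-fold). Of the 14 input calls, 10 held when each of the 4 input libraries was left out in turn. Those of fah1, SPBPB21E7.11, fub2 and SPBPB2B2.01 were each lost without TSA replicate 2, and all but that of SPBPB2B2.01 without TSA replicate 1 too. DESeq2 kept 5 of the 14, those of grt1, SPBPB21E7.04c, aes1, SPBPB10D8.02c and SPBPB2B2.06c.

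**Figure D5:**
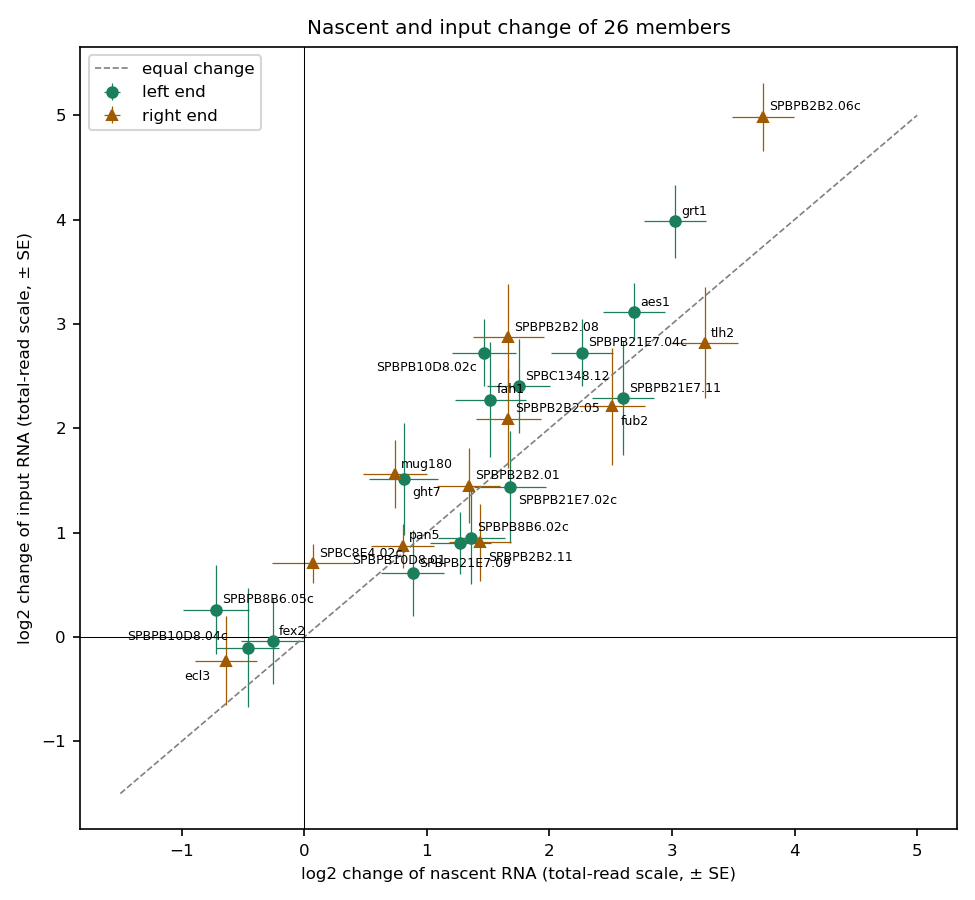
Log2 change of nascent RNA (x axis) and of input RNA (y axis), both TSA over untreated on the total-read scale with ± SE bars, for 26 members, circles left end and triangles right end. Points above the dashed line of equal change (18 of 26) changed more in the input; SPBPB2B2.06c and grt1 lie farthest out.

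The order of the nascent and the input changes was similar over these genes. On the total-read scale the log2 changes had r = 0.90 and rho = 0.88 over 26 genes, a description of values that share cultures and lysates. In 18 of the 26 the input changed by more than the nascent RNA. The median change of the nascent to input ratio was -0.42 on the log2 scale, against 0.03 over all coding genes. No member was called for a change of this ratio by limma, nor was any of the 7183 features tested (0% called), and 6 members and 692 features had an unadjusted p under 0.05. The lowest were SPBPB2B2.06c (log2 change of the ratio -1.24, unadjusted p = 0.0017, adjusted p = 0.40) and SPBPB10D8.02c (-1.26, adjusted p = 0.40).

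Summed over all members of the left arm, the spike-in-scaled signal was 584 ± 175 in untreated and 1366 ± 178 in TSA cells (SD, n = 2 libraries each), 2.34 times as much. The right arm gave 4128 ± 923 and 3730.3 ± 848, with overlapping libraries, and SPBC8E4.02c made up most of its signal. Without that gene the right arm gave 721 and 438 in the untreated libraries and 971 and 1108 in the TSA libraries, 1.79 times as much on average. In the input the sums with TSA were 4.78 times those without at the left end and 2.80 times at the right end (3.56 times there without SPBC8E4.02c). With 2 against 2 libraries an exact permutation test cannot go below p = 0.333, so no test of these sums was made.

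In untreated cells most of these genes were little transcribed. Per kb of gene, the spike-in-scaled signal of 23 of the 26 tested members was under the median of all coding genes (134 per kb), and their own median was 18.2 per kb. With TSA 19 of 26 were still under the coding median (93.3 per kb), while their own median was 34.5 per kb. The lowest untreated levels per kb belonged to tlh2 (0.681), fah1 (3.18) and SPBPB21E7.02c (6.49), and values of partly unique genes such as tlh2 are understated. The 3 highest of the left arm were SPBPB21E7.04c (68.7 per kb), fex2 (55.9) and SPBPB10D8.04c (46.1), and those of the right arm were SPBC8E4.02c (2193), ecl3 (508) and pan5 (156). Of these 6 genes, SPBPB21E7.04c alone was called as a rise. In untreated cells 19 members could be tested for nascent over input. All 19 were higher in the nascent libraries, as were 95.4% of all features, with 1.57% lower (98.5% and 0.102% of coding genes). Being higher says little, because the point 0 of this ratio is set by scaling and by unequal pseudocounts (6.58 nascent, 1.18 input). A gene with few reads lies above 0 through these pseudocounts alone, so values are only set beside the coding median. The median log2 ratio of the 19 members was 2.97, against 2.56 over coding genes, and SPBC8E4.02c had the highest at 6.03.

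By the words of their RefSeq products the members fell into a few roles. Both transcription factor genes, SPBC1348.12 and grt1, rose. Of 15 enzyme genes 12 were tested, and 7 rose and 1 fell in nascent RNA, while 7 rose in the input. Over all features 2.1% rose and 6.31% fell in nascent RNA on the spike-in scale, and 4.53% rose in the input. The enzymes SPBPB21E7.02c and tlh2 passed the nascent filter only through their TSA values, as fah1, SPBPB21E7.02c and tlh2 did in the input. Of 10 transport genes 6 were tested (ght7, SPBPB8B6.02c, fex2, SPBPB10D8.01, SPBPB10D8.04c and SPBPB2B2.01), and 0 were called on the spike-in scale, 3 rose on the total-read scale and 1 in the input. Their median log2 change was 0.62, against 1.10 for the 12 enzymes, and the difference between the roles was not tested. The transport genes fex2 and SPBPB10D8.04c had under 50% unique 50-mers, as did the enzyme genes SPBPB8B6.05c and tlh2. Of 8 genes of unknown role 2 were tested and both rose, SPBPB2B2.08 after passing the filter only through its TSA values. The 10 membrane proteins of unknown role, mostly of the DUF999 and transmembrane helix families, and the glycoprotein gene could not be tested, since they lie in the duplicated blocks, or, for SPBPB2B2.07c, had too few reads.

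Counting coding parts alone kept the rises and removed the left fall from the test. Of 22 members with enough reads over coding sequence, 14 rose and 1 fell on the spike-in scale, where 1.35% of 4968 genes were called as rises and 6.08% as falls. At the left end 8 of 11 rose and 0 fell by limma, with SPBPB8B6.05c, fex2, SPBPB10D8.04c and SPBPB21E7.09 under the tested level there. At the right end 6 of 11 rose and ecl3 fell. All 13 rises of whole genes were among the 14, and SPBPB2B2.01 was added (log2 change 1.09 ± 0.35 SE, adjusted p = 0.030). Coding reads are part of the reads of the whole genes, so this overlap is no independent check. tlh2, for one, passed this filter only through its TSA values, and how many other members did was not counted. The coding change of grt1 was 2.94, where coding reads were 14 and 9.30 without TSA and 125 and 132 with TSA, and that of ecl3 was -1.09. Without TSA replicate 2 the number of coding rises was 4.

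Sequence upstream of the risers was read from RefSeq to see what these genes share. Printed are the 250 bases before the transcript start of the 3 risers with the largest changes among members whose RefSeq start is that of a transcript: SPBPB2B2.06c (chrII:4471165-4471414, minus strand), aes1 (chrII:69882-70131, plus strand) and SPBPB21E7.04c (chrII:65552-65801, minus strand). Capitals mark any match to the letters TATAAA (core promoter box), TGACGT (Atf1 and Pcr1), CCCCTC (Rst2), GGTTACA (telomere repeat bound by Taz1) or GTAAACAAA (Mei4) on either strand. The deposited spans of SPBPB2B2.06c and SPBPB21E7.04c begin upstream of the RefSeq transcript start, at 4471207 and 65620, and that of aes1 begins downstream of it.
SPBPB2B2.06c: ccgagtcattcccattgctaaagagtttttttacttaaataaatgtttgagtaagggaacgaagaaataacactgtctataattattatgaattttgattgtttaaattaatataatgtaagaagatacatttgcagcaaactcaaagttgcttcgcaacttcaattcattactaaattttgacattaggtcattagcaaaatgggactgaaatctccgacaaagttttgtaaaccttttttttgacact
aes1: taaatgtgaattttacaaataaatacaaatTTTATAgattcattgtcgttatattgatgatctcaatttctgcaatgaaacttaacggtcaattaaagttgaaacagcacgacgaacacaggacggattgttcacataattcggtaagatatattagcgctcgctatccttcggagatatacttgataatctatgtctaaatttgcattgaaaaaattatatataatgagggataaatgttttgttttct
SPBPB21E7.04c: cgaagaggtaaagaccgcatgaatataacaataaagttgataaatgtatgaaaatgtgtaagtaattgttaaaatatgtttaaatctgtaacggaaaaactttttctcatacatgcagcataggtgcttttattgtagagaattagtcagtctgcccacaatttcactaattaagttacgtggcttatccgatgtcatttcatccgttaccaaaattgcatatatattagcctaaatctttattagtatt

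The aes1 window held TATAAA on the reverse strand, and the other windows held none of the 5 motifs. Over windows of the same length, TATAAA was in 24 of 51 members and 44.4% of 5112 coding genes, TGACGT in 2 of 51 (mug180 and SPBCPT2R1.02) and 5.52%, GGTTACA in 3 of 51 (SPBC1348.07, SPBPB2B2.14c and SPBCPT2R1.02) and 2.05%, and CCCCTC and GTAAACAAA in 0 of 51, against 1.70% and 5.18%. No match says only that these letters were not in the window. In 40 of the 51 members the window ends at the first codon, or at a partial start, because RefSeq gives no transcript start there.

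The genes of the silencing machinery were read beside the members from a list of 37, among them clr3, clr4, swi6, sir2, taz1 and rap1. On the spike-in scale 0 of 37 rose and 0 fell by limma (0 and 13 at an unadjusted p under 0.05). Their log2 changes ran from -0.98 (fft3) to 0.18 (poz1) with a median of -0.51, near that of all coding genes. On the total-read scale the values ran from -0.50 to 0.65 and 0 were called (2 higher and 0 lower at an unadjusted p under 0.05). In the input 1 of 36 rose (stn1, log2 change 1.22) and 1 fell (swi6, log2 change -1.02), shares near the 4.53% and 1.56% of all features.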

How the data were processed

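NET-seq (IP) and input libraries of 4 cultures, 2 untreated and 2 treated with TSA, were analysed. The authors removed adapters with cutadapt, mapped 50-base reads to S. pombe (ASM294v2) and to S. cerevisiae with Bowtie, and kept unique matches with at most 1 mismatch. The assay keeps strand, but how reads were counted over overlapping features is not given in the sources used here. The deposited values are a signal per feature, reads multiplied by 1 factor per library, which the authors took from the spike-in ribosomal protein genes (IP only) or from the total of uniquely mapped reads. The deposited values of the library with factor 1 in each table are whole counts. Dividing each column by its smallest step gave back whole reads for 100.0% of the values (tolerance 0.001 reads), and both tables then held the same reads. Depth per library was 7218671 to 12591213 reads on 9111 features, and 24 columns were not used.

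Log2 values (pseudocount 6 on the spike-in scale, 6.58 for nascent and 1.18 for input RNA on the total-read scale) were fitted with limma 3.58.1 in R 4.3.3, for features with a mean above the pseudocount. Each comparison used its own libraries alone, the ratio of nascent to input used all 8, and nascent over input in untreated cells kept the culture as a block. Calls needed a Benjamini-Hochberg adjusted p under 0.05 over all features and a 2-fold change. The spread between replicates was shared fully across features in the nascent comparisons (infinite prior degrees of freedom), so a gene's own replicate spread did not enter its test there. The rule for named genes took members called in any fit, the 5 highest and 5 lowest changes at each end, the 3 members nearest each end, the 3 highest in untreated density at each end, the genes on either side of the limit, and members under the tested level by identifier. On data simulated from the means and depths of the IP libraries (8009 features), limma recovered 98.5% of well-read genes changed 4-fold, with 1 false call. The simulation used 1 fixed spread for all genes and scaling to library totals. The median member had 3.5 to 18.5 reads in an IP library, so these rates do not carry over to low members or to the spike-in factors. Alternatives were edgeR 4.0.16 and DESeq2 1.42.0 on the recovered reads, median-ratio and TMM scaling, 4 times the pseudocount, no filter, the replicate block and each library left out. A restriction to members with at least 50% unique 50-mers was added after seeing the data.

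Copies were searched with blastn 2.17.0 in the RefSeq genome (ASM294v3), where 51 of 52 members matched, all 51 with the same coding coordinates. Windows of 250 bases before gene starts were cut from that genome. TATAAA was added to the motifs after the files were seen. The members and gene lists were chosen with earlier results of these data known.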

Additional observations from a re-analysis of the deposited data

Results flagged for a closer look

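Non-coding features of the same windows were not part of the comparisons above. There were 71 such features (antisense transcripts, other non-coding transcripts and pseudogenes), 41 at the left end and 30 at the right end. Of these 44 were tested and 23 rose on the spike-in scale, with 0 falls by limma. The rises were 12 of 28 at the left end, the pseudogene SPBC1348.11 among them, and 11 of 16 at the right end. Over all features 2.1% rose. Overlapping features on 1 strand share reads, so that 23 counts some reads more than once. Joined where they overlap, the 44 tested features form 32 stretches and the 23 rises 19, or 30 and 17 without XUT0160 and XUT0443, which overlap coding genes of the windows on the same strand. The median log2 change was 0.94 at the left end and 1.15 at the right end. On the total-read scale 37 rose, against 4.45% of all features, and in the input 16 of 33, against 4.53%. The same filter applied in these comparisons. Among the spike-in rises, SPNCRNA.1303, SPNCRNA.117, XUT0160, XUT0163, XUT0957, XUT0960, XUT0963, XUT0966, XUT0968, XUT1267 and XUT1269 had an untreated mean under the pseudocount of 6. They entered the test only through their TSA values, so a higher TSA value was built in. The tested features XUT0961, XUT0965, XUT0969, XUT0971 and SPNCRNA.1304 entered likewise but were not called. The largest change among those printed here belonged to XUT0443 (log2 change 3.11), which lies within gal10 on the strand of gal10 itself and antisense to SPBPB2B2.11, and grt1-antisense-1 had 1.48 in nascent and 2.99 in input RNA. Of the 52 members, 12 had an antisense feature. How reads of overlapping features were counted is not given in the sources used here.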

How the results depend on the processing

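On the spike-in scale the 8 left rises became 5 with DESeq2, 4 with 4 times the pseudocount and 5 with the replicate block, and 2 to 9 with 1 library left out. The 5 right rises became 3 with 4 times the pseudocount, 3 with the block and 2 to 7 with 1 library left out. Median-ratio and TMM scaling gave 10 left and 7 right rises. On the recovered reads with the deposited factors edgeR gave 9 and 6. The left fall and the right fall were 0 and 0 under median-ratio scaling, TMM, 4 times the pseudocount and the block, the left fall was 0 among members with at least 50% unique 50-mers, and with 1 library left out they ranged over 0 to 2 and 0 to 1. On the total-read scale the 10 and 7 rises stayed within 1.5 times of these counts under every alternative, 10 to 11 at the left end and 7 at the right end with 1 library left out. The 7 left and 7 right input rises became 4 and 1 with DESeq2: of the 9 lost calls, 6 had an adjusted p of 0.050 to 0.23 there, and those of fah1, SPBPB21E7.11 and fub2 had none. Over coding parts the 14 rises became 6 with 4 times the pseudocount, 7 with the block and 4 to 10 with 1 library left out, and the 1 fall became 0 with 4 times the pseudocount, the block and total-read scaling and 0 to 1 with 1 library left out. In untreated cells the 19 members higher in nascent than in input RNA became 11 with 4 times the pseudocount and 30 without a filter. The change of the ratio gave 0 calls under every alternative. Among values never called, SPBC8E4.02c turned to 0.039 with median-ratio scaling and 0.067 with TMM, ght7 ranged from -0.0023 to 0.87, and in the input SPBPB8B6.05c ranged from -0.021 to 0.55, fex2 from -0.34 to 0.25 and SPBPB10D8.04c from -0.44 to 0.23 over the left-out libraries. The cause of these shifts was not tested. The groups share replicate numbers, but nothing pairs their cultures: deviations of same-numbered libraries correlated at -0.205 and -0.242 in the IP and 0.0181 in the input comparison. Low counts in untreated cells and the share of unique sequence limit most members.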
